A study of Homo sapiens with 10 samples.

Results

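The genes described here encode the proteasome, the protease complex that degrades ubiquitin-tagged proteins. They were found on the arrays as the probe sets that are annotated to exactly 1 gene and whose symbol is PSM, a letter from A to G and a number, leaving out the inducible subunits PSMB8 and PSMB9. Of 54675 probe sets, 41091 name 1 gene, and 95 probe sets of 48 genes met the rule. Of these, 16 probe sets belong to 8 genes that encode no proteasome protein (PSMC3IP, PSME3IP1, PSMA3-AS1, PSMB8-AS1, PSMD6-AS2, PSMD7-DT, PSMD14-DT and PSMG3-AS1) and were counted apart. That leaves 79 probe sets of 40 genes, of which 30 probe sets of 15 genes encode the core particle (PSMA and PSMB) and 49 probe sets of 25 genes encode regulatory or assembly proteins (PSMC to PSMG). The constitutive label does not cover PSMB10, which meets the rule but is known as an inducible catalytic subunit, so its values are given by name. PSMA6, PSME2, PSMB11, PSMC5, PSMD7 and PSMD13 had no probe set under the rule and were not analysed here.

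The arrays are Affymetrix HG-U133 Plus 2.0, hybridised with total RNA of RWPE-1, an immortalised, non-tumorigenic human prostate epithelial cell line. All 10 samples are RWPE-1 cells infected with murine stem cell virus (MSCV) retroviruses, selected as stable clones, kept in normal growth conditions and carrying the biotin ligase BirA. The 3 control arrays hold cells with BirA alone, 4 arrays hold cells with BirA and ETV1, and 3 arrays are labelled as cells with BirA and ERG, where ETV1 and ERG are ETS transcription factors. The series design gives 3 biological replicates, though 4 arrays are labelled ETV1. The number of separate clones behind the arrays of a group is not stated, so the p-values reflect only how these arrays vary, which may in part be technical, and the small number of arrays limits the precision.

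The proteasome core is a barrel of stacked rings. Outer alpha rings gate the entry, and inner beta rings hold the catalytic sites of PSMB5, PSMB6 and PSMB7, which cells under interferon can exchange for PSMB8, PSMB9 and PSMB10. A regulatory particle of ATPases, ubiquitin receptors and lid subunits caps the barrel and feeds it unfolded substrates, and PSMG proteins are chaperones that build the core. Transcription of most subunit genes is known to be raised together by NFE2L1 when proteasome activity is low.

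Members that move together invite a look at their promoters, and 34 of the 40 genes had an entry in the RefSeq table used (GRCh38.p14, 250 bases before to 50 bases after the start), with 14 promoters of 11 core genes and 26 of 23 regulatory and assembly genes. The letters CCGGAA, a core with one flank that ETS factors bind, were searched on both strands, as were TGACNNNGC, the antioxidant response element core read by NFE2L1, and CCAAT, the box bound by NF-Y. None of these motifs contains another, though matches can share an end base. CCGGAA was found in 2 of 14 core promoters (PSMA8 and PSMB5) and in 16 of 26 regulatory and assembly promoters, against 17.25% of all 35116 promoters of the same length. TGACNNNGC was found in 2 of 14 core promoters (PSMA4 and PSMB3) and 10 of 26 regulatory and assembly promoters, against 13.35% of all promoters. CCAAT was found in 7 of 14 and 9 of 26 promoters, against 34.61%. The core of the interferon-stimulated response element (GAAA, any 2 bases, GAAA), which was added after the sequences had been seen, was found in 5 of 40 promoters (PSMA4, PSMB4, PSMB10, PSME1 and PSMG4), against 3.574% of all promoters. A match is a description of the letters only. The 120 bases before the start of 5 genes are printed because they show each motif in a member described below: CCAAT in the alpha subunit PSMA5, CCAAT and TGACNNNGC in the beta subunit PSMB3, CCGGAA in the ATPase PSMC6 and the scaffold PSMD2, and the interferon-stimulated response element core in PSMB10. Each is read along the strand of its gene, with motif letters in capitals, and in PSMD2 the capitals are CCGGAA on the opposite strand. Another PSMD2 start in that table, whose 120 bases hold none of these motifs, is not printed.
PSMA5 (chr1:109426449-109426568, minus strand): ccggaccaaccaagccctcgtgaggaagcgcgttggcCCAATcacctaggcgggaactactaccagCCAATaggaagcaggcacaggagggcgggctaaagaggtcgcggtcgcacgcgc
PSMB3 (chr17:38752621-38752740, plus strand): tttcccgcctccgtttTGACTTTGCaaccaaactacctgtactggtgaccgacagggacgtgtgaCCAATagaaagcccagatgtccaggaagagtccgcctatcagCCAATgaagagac
PSMC6 (chr14:52707080-52707199, plus strand): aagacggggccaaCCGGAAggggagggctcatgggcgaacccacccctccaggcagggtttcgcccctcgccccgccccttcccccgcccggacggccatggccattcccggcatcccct
PSMD2 (chr3:184299121-184299240, plus strand): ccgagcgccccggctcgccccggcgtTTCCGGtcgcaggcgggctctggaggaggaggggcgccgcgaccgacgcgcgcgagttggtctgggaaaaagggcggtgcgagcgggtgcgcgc
PSMB10 (chr16:67936851-67936970, minus strand): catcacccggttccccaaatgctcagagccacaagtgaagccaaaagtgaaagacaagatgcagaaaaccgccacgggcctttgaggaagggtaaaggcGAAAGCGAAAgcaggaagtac

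Each deposited value is a linear intensity of 1 probe set on 1 array. Testing was limited to probe sets brighter than the median of their array on 3 arrays or more, 25969 in all. Of the 79 proteasome probe sets 70 passed that filter, 26 of 14 core genes and 44 of 25 regulatory and assembly genes. The other 9 include the only probe set of PSMA8, a testis-specific alpha subunit. The remaining 8 are 1 probe set each of PSMA3, PSMA5, PSMB2, PSMD4, PSMD5 and PSMD6 and a pair of PSMG4. A probe set above the median on only the 3 arrays labelled ERG also passes the filter, which favours rises there. PSMF1 235993_at is such a probe set and stays in the counts of its class. PSMG4 233443_at, above the median on control A as well, also reaches 3 arrays only through those labelled ERG and stays in the counts. Differences are on the scale of log2(intensity + 16), which understates the fold change of dim probe sets, and were tested with limma, with Benjamini-Hochberg adjustment over all 25969 probe sets and a threshold of 0.05. Intensities of different probe sets are not set against each other.

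The 3 ETV1 probe sets that passed upward set the ETV1 arrays apart. Probe set 217053_x_at of ETV1 read 72.5, 70.3 and 122 on the control arrays and 1302, 1689, 1443 and 844 on the ETV1 arrays. Probe sets of ERG went opposite ways on the arrays labelled with it, 211626_x_at from 9.04 to 36.5 on average, below the filter, and 222079_at from 186 to 9.43. ERG itself therefore does not settle the label, and these arrays are called the arrays labelled ERG. They also stand apart as a group, with a median intensity of 48.5 to 52.6 against 70.9 to 75.5 on the other 7 arrays, and with more ACTB signal at the 3 prime than the 5 prime end (a ratio of 2.75 to 3.07 against 1.24 to 1.40). The same ratio for GAPDH did not set them apart, at 0.946 to 1.045 against 0.893 to 1.05. Of 13 epithelial marker probe sets 11 passed the filter, and they did not move as one. KRT5 averaged 5212 in control, 5876 in ETV1 and 11269 on the arrays labelled ERG, KRT15 176, 405 and 205, and ITGB4 204989_s_at 1430.0, 2802 and 93.7 in the same order. None of 7 leukocyte marker probe sets passed the filter.

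In ETV1 cells the core particle genes were lower than in control cells. Of 26 core probe sets 16 fell and 0 rose, against 13.1% lower and 10.4% higher among all tested probe sets, and the falls covered 11 of 14 core genes. The median log2 fold change was -0.45, against -0.03 over all tested probe sets, and single core probe sets lay between -0.91 and 0.084. On 15 of the 26 every ETV1 array lay below every control array, and on 0 above, against 18.8% and 15.3% of all tested probe sets. Regulatory and assembly genes went the same way less far, with 12 of 44 probe sets lower, 4 higher and a median of -0.30. In bulk RNA such as this, fewer cells of a type and less RNA per cell cannot be told apart.

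Bright probe sets as a whole were lower on the ETV1 arrays, so the members were also read beside other bright probe sets. The limit used is a floor and does not match brightness. Control means reached 6831 among core (PSMA7 201114_x_at) and 2940 among regulatory and assembly probe sets (PSMG2). Among 3693 tested probe sets with a control mean of at least 1000, 30.8% were lower and 5.06% higher, with a median of -0.24. Of the 19 core probe sets this bright 16 fell (84.2%), with a median of -0.51, and of 27 such regulatory and assembly probe sets 10 fell (37%), with a median of -0.37. No test of a set was made, and the difference between the classes is described by these counts, which do not compare them at like brightness.

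**Figure D1:**
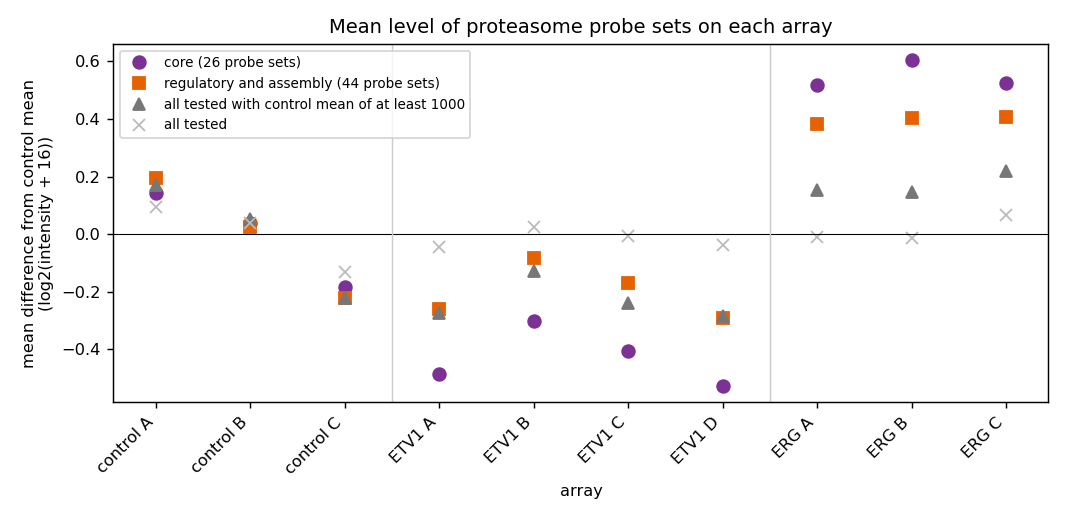
The mean level of 26 core and 44 regulatory and assembly probe sets is plotted for each of the 10 arrays as the difference from the control mean, in log2(intensity + 16), beside the means of all tested probe sets and of those with a control mean of at least 1000; 1 symbol is 1 array. Core means lie between -0.53 and -0.30 on the ETV1 arrays and between 0.52 and 0.60 on the arrays labelled ERG, and the control arrays step down from A to C.

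The 3 control arrays were not alike, and the counts depend on them. The mean of the core probe sets, relative to the control mean, was 0.14 on control A, 0.04 on control B and -0.18 on control C, and -0.48, -0.30, -0.40 and -0.53 on ETV1 A, B, C and D. All 4 ETV1 means thus lie below that of control C. The order A above B above C held for 56 of 70 proteasome probe sets (80%), for 52.5% of all tested probe sets and for 82.99% of those with a control mean of at least 1000. For regulatory and assembly probe sets the control means were 0.20, 0.03 and -0.22, and those of ETV1 B (-0.08) and C (-0.17) lay above that of control C. The number of core probe sets that fell was 9 without control A, 9 without control B and 18 without control C. The number of regulatory and assembly probe sets that fell was 4 without control A, 5 without control B, 20 without control C, 6 without ETV1 A and 7 without ETV1 C. After quantile normalization 13 core and 14 regulatory and assembly probe sets fell, and 0 and 5 rose. Among all tested probe sets 16.7% were then lower and 14.6% higher.

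Among the catalytic subunits, PSMB5 and PSMB6 fell. PSMB5, the chymotrypsin-like subunit and the main target of the drug bortezomib, read 2407, 2129.9 and 1626 on control A, B and C and 1274, 1449.9, 1253 and 1332 on ETV1 A to D. The groups do not overlap, and the log2 fold change was -0.61 (SE 0.14, limma adjusted p = 0.0057). PSMB6, the caspase-like subunit, read 2970.4, 2516 and 2208 on the control and 1757, 2117, 1923 and 1584 on the ETV1 arrays. Every ETV1 array lay below every control array, with a difference of -0.47 (SE 0.14, limma adjusted p = 0.024), and the call was lost without control A (-0.36), control B (-0.48), ETV1 A (-0.45) or ETV1 D (-0.40). PSMB7, the trypsin-like subunit, read 5908, 5133 and 4838 on the control and 4040.0, 4908, 4319.9 and 3737 on the ETV1 arrays, where ETV1 B overlaps control C. It did not pass, at -0.32 (limma adjusted p = 0.106).

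All 4 non-catalytic beta genes had probe sets that fell, 6 of their 10 tested. PSMB2, a subunit of the beta ring, read 4359, 4041 and 3476 on the control and 2119, 2497, 2271 and 2019 on the ETV1 arrays with probe set 200039_s_at. Its lowest control array was above its highest ETV1 array, and the log2 fold change was -0.82 (SE 0.14, limma adjusted p = 4.3e-04). PSMB3 read 4598, 4138 and 3583 on the control and 2384, 2654, 2476 and 2236 on the ETV1 arrays, again without overlap (log2 fold change -0.74, limma adjusted p = 8.7e-04). PSMB1 200876_s_at read 4328, 3905 and 3419 on the control and 2025, 2792, 2474 and 2279 on the ETV1 arrays, a fall of 0.70 on the log2 scale. PSMB1 214288_s_at read 6335, 6026 and 5154 and then 4017, 4563, 4166 and 3772, a fall of 0.50, so the groups stayed apart in both. The PSMB4 probe sets 202243_s_at and 202244_at fell by 0.67 and 0.51. Among the other 4 of the 10, the dimmest probe sets of PSMB1 and PSMB4 differed by -0.11 and 0.084, and PSMB2 201404_x_at and 238425_at by -0.12 and -0.30, all short of the threshold.

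In the alpha ring 8 of 11 probe sets fell, covering 5 of 6 genes. PSMA7 probe set 216088_s_at had the largest fall of the core, from 3066, 2556 and 2244 on the control to 1228, 1692, 1514 and 1141 on the ETV1 arrays (log2 fold change -0.91, SE 0.16, limma adjusted p = 5.6e-04). The highest ETV1 array, B, stayed below control C. The other PSMA7 probe set, 201114_x_at, changed by -0.43, and PSMA3 201532_at and PSMA5 201274_at by -0.63 and -0.57. Probe sets of PSMA1 and PSMA2 that fell lay between -0.53 and -0.42. PSMA4 was the alpha gene without a fall, at 3703, 3312 and 2649.6 on the control and 3054, 3416, 3156 and 3127 on the ETV1 arrays, a difference of -0.0027 (limma adjusted p = 0.993). Its ETV1 arrays all lie inside the control range.

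In the base of the regulatory particle, falls were fewer. The ATPases unfold substrates, and 2 of their 7 probe sets fell, those of PSMC1 (-0.41) and PSMC2 201068_s_at. The latter read 3373, 2892 and 2545 on the control and 1964, 2247, 2175 and 1992 on the ETV1 arrays (log2 fold change -0.48, limma adjusted p = 0.015), with no overlap. PSMC3, PSMC4 and PSMC6 differed by -0.35, -0.37 and -0.42 without passing. PSMD2, the large scaffold of the base, fell from 3009, 2406 and 2134 on the control to 1503, 1830.0, 1701 and 1323 on the ETV1 arrays, by 0.65 on the log2 scale (SE 0.15, limma adjusted p = 0.0053). PSMD4, a ubiquitin receptor, had 1 of 3 probe sets lower, at -0.44, and the scaffold PSMD1 had none, at -0.30 and -0.46.

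The lid, which removes ubiquitin from substrates, had 5 of 8 probe sets lower and a median of -0.45. The medians of the base were close to it, at -0.40 for the ATPases and -0.385 for PSMD1, PSMD2 and PSMD4. PSMD12, a lid scaffold subunit, read 1396, 1135 and 909 on the control and 666, 720.2, 709.6 and 614 on the ETV1 arrays with probe set 202353_s_at, a fall of 0.73 on the log2 scale (limma adjusted p = 0.0019), and its second probe set changed by -0.63. The other lid falls were PSMD8 (-0.47), PSMD3 (-0.46) and 1 of 2 PSMD11 probe sets (-0.43). PSMD14, the deubiquitinase of the lid, was at -0.31 (limma adjusted p = 0.162), and PSMD6 at 0.16 (limma adjusted p = 0.466).

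Of the assembly chaperones, PSMG1 alone passed in the comparison of ETV1 with control. It pairs with PSMG2 to start the alpha ring, and read 2502, 2261 and 1901 on the control and 1174, 1352, 1204 and 1134 on the ETV1 arrays. The highest ETV1 array is far below the lowest control array, and the fall of 0.85 on the log2 scale (SE 0.14, limma adjusted p = 3.2e-04) was the largest among regulatory and assembly probe sets. Its partner PSMG2 read 3396, 3041 and 2384 on the control and 2444, 2669.6, 2504 and 2584 on the ETV1 arrays, a difference of -0.19. PSMG3 and the brightest PSMG4 probe set, 228217_s_at, which encode the other chaperone pair, differed by -0.052 and 0.049. None of 5 probe sets of the base chaperones PSMD5, PSMD9 and PSMD10 passed, with differences from -0.39 to 0.0053.

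The activators and the inhibitor held all 4 rises seen among the members. PSME4 encodes PA200, a nuclear activator that opens the core without ubiquitin. Probe set 212220_at of this gene read 256, 292 and 285 on the control and 348, 565, 496 and 466 on the ETV1 arrays (log2 fold change 0.70, SE 0.17, limma adjusted p = 0.0064). Probe set 212219_at rose by 0.63, and 212222_at, at 0.46, did not pass (limma adjusted p = 0.054), while every ETV1 array was above every control array in all 3 probe sets.

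PSMF1 encodes PI31, known as an inhibitor of the core in vitro. Its brightest probe set, 201052_s_at, read 1160.3, 981 and 674 on the control and 1226, 1561, 1340.1 and 1198 on the ETV1 arrays. Every ETV1 array was above every control array, and the rise of 0.52 (limma adjusted p = 0.033) was lost without control B (0.57), control C (0.31), ETV1 B (0.45) or ETV1 C (0.52). The dim probe set 235993_at read 39.1, 18.7 and 20.7 on the control and 51.0, 38.3, 49.2 and 35.3 on the ETV1 arrays, where ETV1 B and D lie below control A. It rose by 0.52 and did not pass after quantile normalization (0.47), nor without control B (0.39), control C (0.43), ETV1 A (0.46) or ETV1 C (0.47). PSMF1 236012_at read 126, 106 and 90.8 and then 70.3, 102, 101 and 89.6, and with 201053_s_at it differed by -0.21 and 0.0057 without passing.

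PSME3, the nuclear activator PA28 gamma, had 2 of 4 probe sets lower. Probe set 200988_s_at read 613, 507 and 418 on the control and 340.1, 323, 332 and 339.9 on the ETV1 arrays (log2 fold change -0.58, limma adjusted p = 0.01), and did not pass without control A (-0.45). Probe set 209852_x_at changed by -0.44, and 200987_x_at and 209853_s_at were at 0.037 and -0.0061. PSME1, a subunit of the interferon-inducible activator PA28, read 3187, 3144 and 2416 on the control and 2177, 2588, 2335 and 2164 on the ETV1 arrays, a difference of -0.32 that did not pass (limma adjusted p = 0.108).

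**Figure D2:**
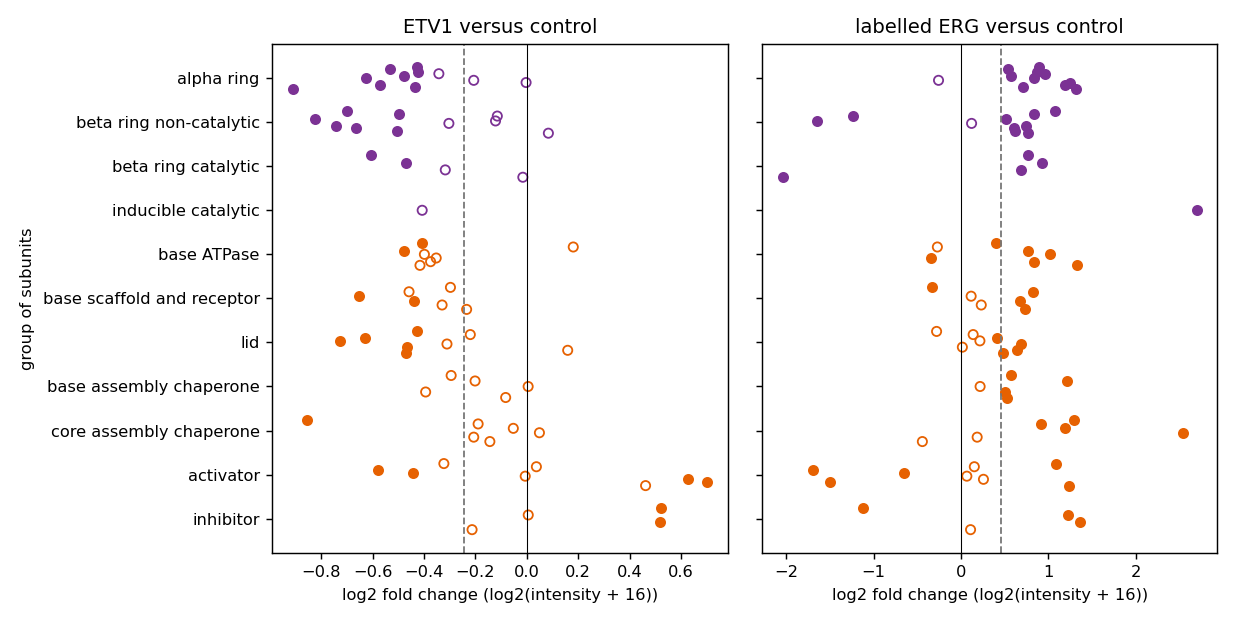
Log2 fold changes, in log2(intensity + 16), are plotted for the 70 tested proteasome probe sets by group of subunits, for ETV1 against control (left) and the arrays labelled ERG against control (right); filled points passed limma at an adjusted p of 0.05, open points did not, purple marks core and orange regulatory and assembly genes, and the dashed line is the median of all tested probe sets with a control mean of at least 1000 (-0.24 left, 0.46 right). In the left panel the alpha and beta rings and the lid lie mostly left of zero, and in the right panel most groups lie right of zero, with single probe sets far to the left.

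On the arrays labelled ERG most proteasome probe sets were brighter than on the control arrays. As deposited, 21 of 26 core probe sets rose and 3 fell, against 43.3% higher and 35.1% lower among all tested probe sets, and each of the 14 core genes had a probe set that rose. The median was 0.75, against 0.17 over all tested probe sets. All 3 arrays labelled ERG lay above all control arrays on 21 core probe sets and below them on 3, against 42.9% and 34% of all tested probe sets. Among regulatory and assembly probe sets 24 of 44 rose and 6 fell, with a median of 0.45. Of those with a control mean of at least 1000, 18 of 19 core and 17 of 27 regulatory and assembly probe sets rose (94.7% and 63%), and 1 and 3 fell, against 56.1% higher and 19.1% lower among all such probe sets, whose median was 0.46.

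These directions depend on how the arrays are scaled. After quantile normalization, which gives every array the same distribution, 11 core probe sets rose and 3 fell with a median of 0.23, while 15 regulatory and assembly probe sets rose and 16 fell with a median of 0.06. These are 42.3% and 11.5% of the core and 34.1% and 36.4% of the regulatory and assembly probe sets. Of all tested probe sets 39.8% were then higher and 36% lower, so the regulatory and assembly counts and the core rises lie near these shares. Among probe sets with a control mean of at least 1000, 42.1% of core, 25.9% of regulatory and assembly and 23.7% of all were higher. Over all tested probe sets the median was then 0.05, and over those with a control mean of at least 1000 it was -0.12, against 0.46 as deposited. With each array centred on its median, 22 core and 35 regulatory and assembly probe sets rose and 3 of each fell, with medians of 1.26 and 0.96, beside a median of 0.65 over all tested probe sets. After this centring 58.3% of all tested probe sets were higher and 25.5% lower. The shares were 76.4% and 12.7% among those with a control mean of at least 1000. With 1 probe set per gene, the brightest, 14 of 14 core genes rose as deposited, 6 of 14 after quantile normalization and 14 of 14 after centring, and none fell under any of these 3 scalings. This choice leaves out the 3 core probe sets that fell, since none is the brightest of its gene. Over all genes 6755 of 14069 were higher and 4550 lower with it as deposited, and the share under the other scalings was not computed. The scalings share the same 10 arrays, and the part that the array medians and the ACTB ratios given above play in these results was not tested.

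**Figure D3:**
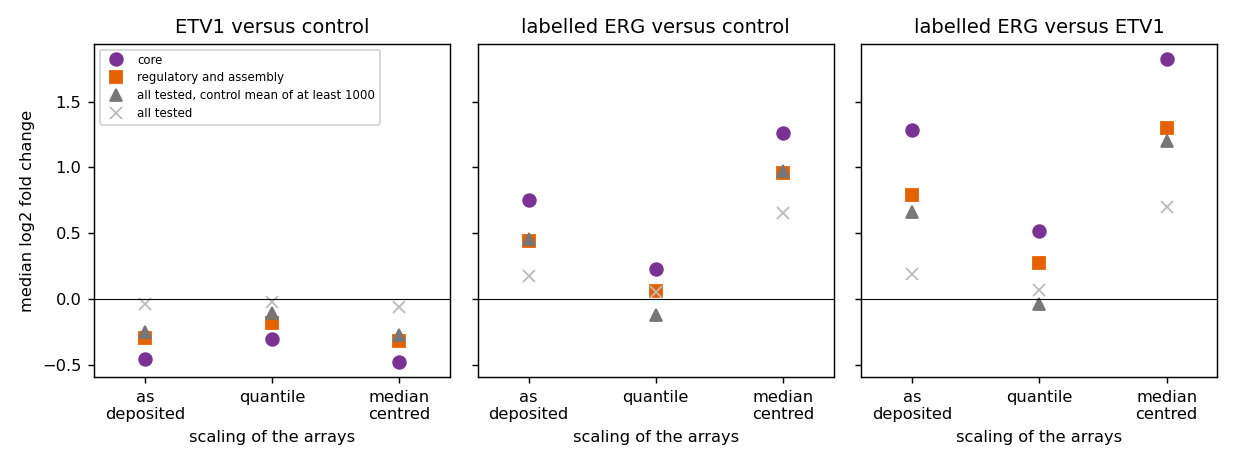
The median log2 fold change of the core, the regulatory and assembly, all tested and all bright probe sets (control mean of at least 1000) is plotted for 3 scalings of the arrays in each of the 3 comparisons; each symbol is the median over the probe sets of 1 class. For the arrays labelled ERG against control, the core median is 0.75 as deposited, 0.23 after quantile normalization and 1.26 after median centring, and stays above that of the bright probe sets in each.

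The largest rises were those of PSMB10 and PSMG4. PSMB10, which replaces PSMB7 in the inducible core, read 2303, 3042 and 1776 on the arrays labelled ERG against 372, 407 and 268 on the control and 247, 288, 256 and 234 on the ETV1 arrays. The log2 fold change over control was 2.70 (SE 0.19, limma adjusted p = 3.6e-09), and 2.25 after quantile normalization, and the lowest array labelled ERG was far above the highest of the other 7. In ETV1 cells it differed by -0.41 (limma adjusted p = 0.116). PSMG4 probe set 228217_s_at read 524, 499.6 and 358 on the control, 471, 478, 441 and 495 on the ETV1 and 2746, 3686 and 1988 on the arrays labelled ERG, a rise of 2.54 over control (SE 0.20, limma adjusted p = 9.5e-09, 2.05 after quantile normalization). In both genes array B labelled ERG was highest and array C lowest. The other tested PSMG4 probe sets, 233443_at and 242055_at, were dim and differed by 0.18 and -0.44 without passing.

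The inducible subunits left out by the rule give the scale for PSMB10. PSMB9, which replaces PSMB6, read 538, 548 and 374 on the control, 563, 591, 573 and 472 on the ETV1 and 3838, 5087 and 4284 on the arrays labelled ERG, where it was 3.15 higher than in control on the log2 scale (limma adjusted p = 1.8e-10). PSMB8, which replaces PSMB5, read 761, 695 and 479, then 415, 523, 427 and 509 and then 2286, 2639 and 2114 in the same order of groups, a rise of 1.86 (limma adjusted p = 8.0e-08). In ETV1 cells PSMB9 and PSMB8 were at 0.19 (limma adjusted p = 0.443) and -0.43 (limma adjusted p = 0.069).

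The constitutive catalytic subunits rose as deposited, by smaller amounts. PSMB5 read 3392, 3632 and 3342 on the arrays labelled ERG, 0.76 above control (SE 0.15, limma adjusted p = 2.6e-04), but 0.13 and short of the threshold after quantile normalization. PSMB6 read 4763, 5002 and 4782, a rise of 0.92 (limma adjusted p = 3.6e-05), and 0.31 after quantile normalization. PSMB7 200786_at read 8131, 8161 and 9141, a rise of 0.68 (limma adjusted p = 4.5e-04), and 0.11, not passing, after quantile normalization. All 3 genes were brighter on every array labelled ERG than on any other array as deposited.

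**Figure D4:**
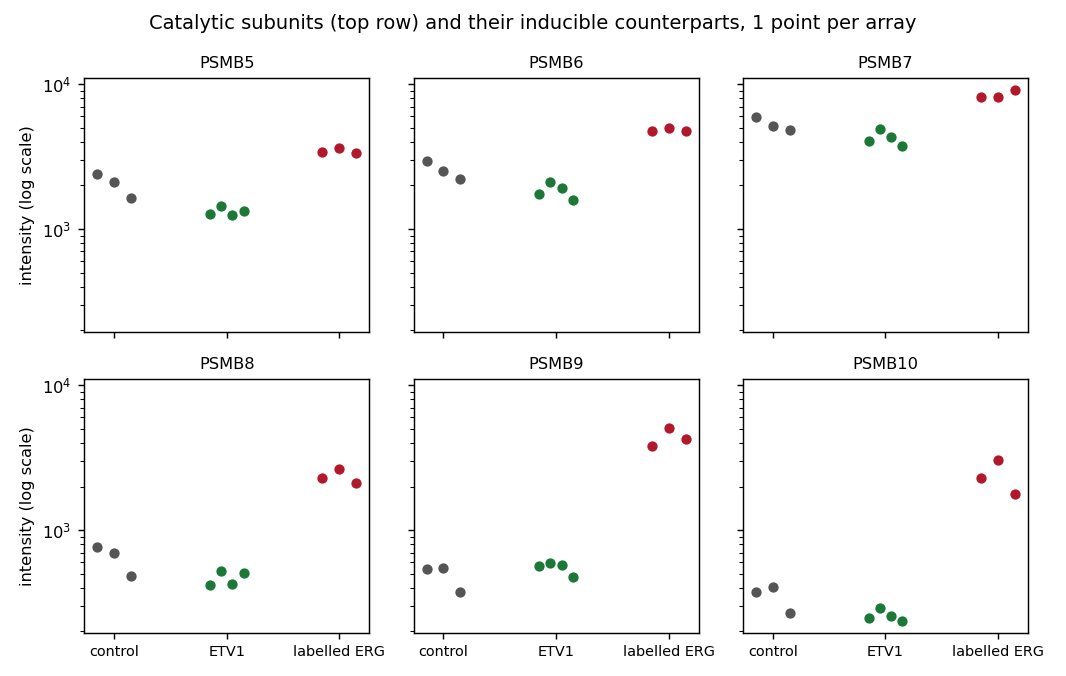
Intensity on a log axis is plotted for each of the 10 arrays, for the brightest probe set of the catalytic subunits PSMB5, PSMB6 and PSMB7 (top) and below each the inducible subunit that can replace it (PSMB8, PSMB9 and PSMB10); 1 point is 1 array. On the arrays labelled ERG all 6 genes lie above the other 7 arrays, and PSMB5 and PSMB6 are lower on the 4 ETV1 than on the 3 control arrays.

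In the rest of the core, the alpha ring rose in 10 of 11 probe sets and fell in none, with a median of 0.87. PSMA7 216088_s_at read 6247, 6709.7 and 6469.6 on the arrays labelled ERG, a rise of 1.31 over control (SE 0.17, limma adjusted p = 2.5e-06), and 0.69 after quantile normalization. PSMA4 read 7301, 7877 and 7567, a rise of 1.24 (limma adjusted p = 9.0e-07), and 0.64 after quantile normalization. The 10 rises lay between 0.54 (PSMA1) and 1.31. PSMB1 200876_s_at read 7679.9, 8336 and 8572, 1.08 above control (limma adjusted p = 6.7e-06), and 214288_s_at read 9826, 10450.1 and 10896, 0.83 above it. PSMB3 read 6769.8, 7599 and 6212, a rise of 0.74 that did not pass after quantile normalization (0.14), and PSMB2 200039_s_at read 5200.3, 5425 and 6367, a rise of 0.52 that turned to -0.092 after it.

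In the base, 5 of 7 ATPase probe sets rose and 1 fell. PSMC6 read 2272, 1848 and 1536 on the control, 1298, 1567, 1458 and 1264 on the ETV1 and 4155, 5123 and 4835 on the arrays labelled ERG, a rise of 1.32 over control (SE 0.16, limma adjusted p = 1.5e-06), and 0.70 after quantile normalization. PSMC4 rose by 0.83 and PSMC1 by 0.40, and PSMC3 changed by -0.35 (limma adjusted p = 0.048). PSMC2 238020_at read 116, 96.6 and 78.3 on the control, 59.7, 76.7, 87.8 and 55.0 on the ETV1 and 209.7, 209 and 212 on the arrays labelled ERG, a rise of 1.02 over control, and every array labelled ERG was above the other 7. PSMC2 201068_s_at read 4845, 4987 and 5038, a rise of 0.76 that did not pass after quantile normalization (0.13). PSMD2 read 2619, 2561 and 2931, within the control range, at 0.12 as deposited (limma adjusted p = 0.525) and -0.48 after quantile normalization.

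In the lid 4 of 8 probe sets rose and none fell, with a median of 0.31. The rises were PSMD14 (0.69), PSMD6 (0.64), PSMD8 (0.48) and PSMD12 202352_s_at (0.41). The second PSMD12 probe set, 202353_s_at, read 1248, 1345 and 1352 and was at 0.22 as deposited and -0.29 after quantile normalization.

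The core chaperones rose in 4 of 6 probe sets, with a median of 1.05, and each of the 4 genes had 1 rise. PSMG1 read 5878, 5624 and 4821 on the arrays labelled ERG, 1.29 above control (SE 0.15, limma adjusted p = 7.3e-07), and 0.66 after quantile normalization. PSMG2 read 5487, 5459 and 5497, a rise of 0.91 (limma adjusted p = 2.8e-05), and 0.28 after quantile normalization. PSMG3 read 1382, 1232 and 980.2 on the control, 1055, 1186, 1146 and 1192 on the ETV1 and 2646, 3019 and 2558 on the arrays labelled ERG, a rise of 1.19 (limma adjusted p = 2.0e-06), and 0.59 after quantile normalization. Of the 5 base chaperone probe sets 4 rose, led by PSMD10 219485_s_at at 1.21. Among the activators, PSME1 read 5660.4, 6162 and 6621, a rise of 1.08 (SE 0.15, limma adjusted p = 5.7e-06), and 0.45 after quantile normalization.

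The members that fell on the arrays labelled ERG were in most cases second probe sets of genes that also rose. Among the 15 proteasome genes with at least 2 passing probe sets in this comparison, 6 had probe sets passing in opposite directions (PSMB1, PSMB2, PSMB7, PSMD1, PSME4 and PSMF1). Over all genes this held for 2508 of 4989 (50.27%), so it is no feature of the proteasome. Between ETV1 and control it held for 0 of 8 proteasome genes and 46 of 1147 genes in all (4.01%). Exons and transcript ends that the probe sets of 1 gene read differ, and which of them follows the gene's RNA was not tested.

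PSMB7 and PSMB2 show the split in the core. PSMB7 244801_at read 245, 244 and 321 on the control, 232, 316, 272 and 247 on the ETV1 and 66.5, 18.4 and 99.3 on the arrays labelled ERG, a change of -2.04 (limma adjusted p = 1.1e-05) against the rise of 0.68 of 200786_at. PSMB2 201404_x_at read 1265, 1061 and 716 on the control, 913, 918, 877 and 916 on the ETV1 and 317, 361 and 243 on the arrays labelled ERG, a change of -1.65 (limma adjusted p = 7.3e-07). PSMB2 238425_at, which did not pass against control, read 222, 188 and 143, 129, 162, 165 and 125 and 207, 182 and 208 in that order of groups, and overlapped control. PSMB1 214289_at read 97.8, 109 and 134, then 107, 101, 98.0 and 107 and then 26.7, 51.2 and 40.7 in that order of groups, a change of -1.24. In the 3 probe sets that fell every array labelled ERG lay below the other 7.

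PSME4 and PSMF1 split among the regulators. PSME4 212220_at read 91.7, 68.7 and 108 on the arrays labelled ERG, a change of -1.49 (limma adjusted p = 1.3e-06), while 212222_at read 173, 174 and 137 on the control, 256, 226, 252 and 182 on the ETV1 and 365, 340.4 and 516 on the arrays labelled ERG, a rise of 1.24 (limma adjusted p = 8.3e-06). PSME4 212219_at read 389.7, 352 and 303, 528, 599, 568 and 486 and 356, 365 and 555 in the same order, and overlapped control. PSMF1 201052_s_at read 442, 391 and 405 on the arrays labelled ERG, a change of -1.12 (limma adjusted p = 2.8e-05). PSMF1 201053_s_at read 505, 473 and 370.0 on the control, 449, 450.2, 463 and 428 on the ETV1 and 1065, 996 and 1124 on the arrays labelled ERG, a rise of 1.22 (limma adjusted p = 9.3e-07). The dim PSMF1 235993_at read 94.3, 100.2 and 77.4 there, all above the other 7 arrays, a difference of 1.36 from control. It passed the filter only through these 3 arrays, so the filter favoured its rise and no p-value is given. PSMF1 236012_at read 121, 101 and 128 and did not pass (0.11). Apart from 235993_at, PSMF1 was thus higher with 201053_s_at and lower with 201052_s_at. The direction of PSME4 and PSMF1 on these arrays depends on the probe set, whereas their passing probe sets in ETV1 cells were all higher.

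PSMD1 also split, and PSME3 did not rise. PSMD1 201199_s_at read 1652, 1354 and 1072 on the control, 954, 1104, 1019 and 825 on the ETV1 and 2189, 2204 and 2794 on the arrays labelled ERG, a rise of 0.82 that did not pass after quantile normalization (0.24). PSMD1 201198_s_at read 1804, 1675 and 1443 on the control, 1256, 1473, 1384 and 1210.0 on the ETV1 and 1291, 1254 and 1342 on the arrays labelled ERG, a change of -0.33 (limma adjusted p = 0.04) that turned to 0.18 with median centring. PSME3 had no probe set higher as deposited: 200988_s_at read 169.8, 119 and 152, a change of -1.70 (SE 0.16, limma adjusted p = 8.9e-08), and 209852_x_at changed by -0.65. The PSME3 probe set 200987_x_at read 1072, 1163 and 1022 on the control, 1084, 1154, 1119.8 and 1096 on the ETV1 and 1358, 1261 and 1024 on the arrays labelled ERG, and was at 0.15 as deposited and -0.35 after quantile normalization.

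**Figure D5:**
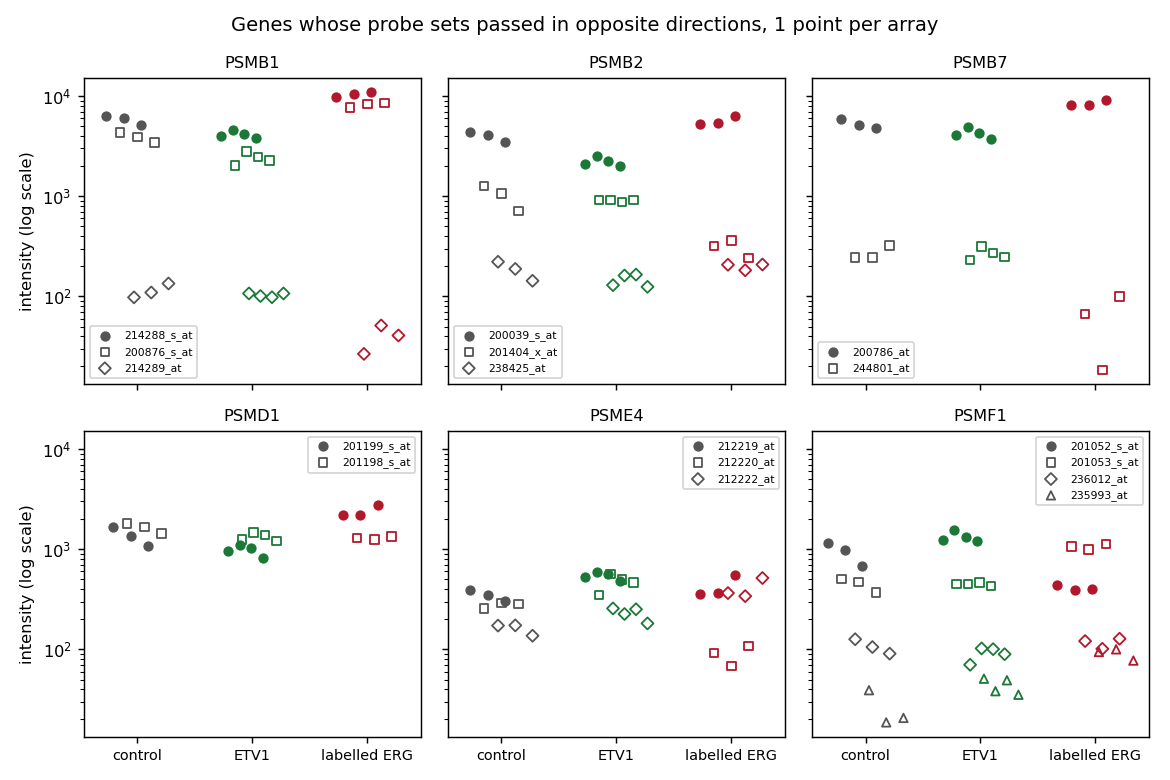
Intensity on a log axis is plotted for each of the 10 arrays for all tested probe sets of the 6 genes whose probe sets passed in opposite directions between the arrays labelled ERG and control; 1 symbol is 1 array and each marker shape 1 probe set. Within PSMB1, PSMB2 and PSMB7 the brightest probe set is higher and a dimmer one lower on the arrays labelled ERG, and in PSMF1 the brightest one is lower.

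Set against each other, the arrays labelled ERG and the ETV1 arrays differed most. As deposited, 22 of 26 core probe sets were higher on the arrays labelled ERG and 3 lower, against 45.6% and 36.5% of all tested probe sets, with a median of 1.28 against 0.20. Without overlap between the groups were 22 higher and 3 lower core probe sets, against 44.9% and 35.3% of all tested. Among regulatory and assembly probe sets 30 of 44 were higher and 5 lower, with a median of 0.79. The 30 include PSMF1 235993_at and PSMG4 233443_at, which reached the filter only through the arrays labelled ERG. Of those with a control mean of at least 1000, 18 of 19 core and 22 of 27 regulatory and assembly probe sets were higher and 1 and 0 lower, against 65.3% and 17.5% of all such probe sets. With the brightest probe set of each gene, 14 of 14 core genes were higher as deposited, after quantile normalization and after median centring. Over all genes 7133 of 14069 were higher and 4694 lower with this choice as deposited. It again leaves out the 3 lower core probe sets. After quantile normalization 22 core probe sets were higher and 3 lower with a median of 0.51, while the regulatory and assembly counts moved to 23 and 13. Of all tested probe sets 42.2% were then higher and 37.9% lower. After median centring the counts were 23 and 3 for the core and 38 and 3 for the others, against 59.1% and 26.9% of all tested probe sets.

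PSMB10 and PSMG4 again had the largest rises of their classes. PSMB10 was 3.10 higher on the log2 scale (SE 0.18, limma adjusted p = 2.4e-10), PSMG4 228217_s_at 2.49, PSMA7 216088_s_at 2.22, PSMG1 2.15, PSMB1 200876_s_at 1.78, PSMA5 201274_at 1.75 and PSMC6 1.74. PSMB5, PSMB6 and PSMB7 200786_at were higher by 1.37, 1.39 and 0.998. On the lower side were PSME4 212220_at (-2.20), PSMB7 244801_at (-2.03), PSMF1 201052_s_at (-1.65), PSMB2 201404_x_at (-1.53), PSMB1 214289_at (-1.13) and PSME3 200988_s_at (-1.12). PSMC2 split here, with 201067_at at 474, 436 and 432 on the control, 548, 492, 504 and 492 on the ETV1 and 364, 351 and 389 on the arrays labelled ERG, a change of -0.45 between the last groups (limma adjusted p = 0.0025) that turned to 0.070 with median centring, against 1.24 for 201068_s_at. The comparisons with control share the 3 control arrays, so their values stand side by side here and no relation between them is given.

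Genes around the proteasome that fall outside the symbol rule were read from fixed lists. Over all tested probe sets 10.4% were higher and 13.1% lower in ETV1 cells, and 43.3% higher and 35.1% lower on the arrays labelled ERG, and the counts of every list stand beside these shares. Of 26 tested probe sets of 10 other proteasome parts, 6 fell and 1 rose in ETV1 cells, and 15 rose and 6 fell on the arrays labelled ERG. The 15 rises include AKIRIN2 213810_s_at, which passed the filter only through the arrays labelled ERG. ADRM1, a ubiquitin receptor of the base, averaged 5296 in control, 2654 in ETV1 and 7278 on the arrays labelled ERG, with log2 fold changes over control of -0.99 (limma adjusted p = 1.4e-04) and 0.46 (limma adjusted p = 0.013). POMP 217769_s_at, the chaperone that matures the core, changed by -0.57 and 0.63, both passing. SEM1, a small lid subunit, was at -0.36 in ETV1 cells without passing (limma adjusted p = 0.079) and rose by 1.21 on the arrays labelled ERG.

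Of 17 tested probe sets of genes that act in proteasome gene transcription, 4 rose and 1 fell in ETV1 cells. NFE2L1, the activator itself, averaged 2507 in control, 1926 in ETV1 and 4857 on the arrays labelled ERG with probe set 200759_x_at. It was at -0.36 in ETV1 cells without passing (limma adjusted p = 0.078), as were its other probe sets (-0.36 and -0.38). NGLY1, the glycanase that NFE2L1 needs to become active, rose by 0.88, and MAFF 36711_at, a small MAF partner of NFE2L factors, by 1.61. On the arrays labelled ERG 11 of the 17 rose and 4 fell. NFE2L1 200759_x_at was at 0.97, MAFF 36711_at at 2.22 and NGLY1 at 0.67. Among the falls were SEL1L 202062_s_at (-1.66), SEL1L 202064_s_at (-1.37) and NFE2L2 1567013_at (-0.80). The rises include NFE2L2 1567015_at, which passed the filter only through the arrays labelled ERG.

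Of 7 tested probe sets of ubiquitin and its activating enzymes 2 fell and 0 rose in ETV1 cells, UBB by 0.57 and UBA1 1555387_at by 0.74 on the log2 scale. On the arrays labelled ERG 3 rose and 2 fell, close to the shares of all tested probe sets (43.3% and 35.1%). Of 11 tested probe sets of shuttle factors, which carry ubiquitinated proteins to the proteasome, 3 fell and 0 rose in ETV1 cells, led by UBQLN1 222990_at (-0.77), and 8 rose and 3 fell on the arrays labelled ERG. Of 22 tested probe sets of the inducible core and antigen supply 5 rose and 0 fell in ETV1 cells, and 14 rose and 7 fell on the arrays labelled ERG. TAP1 202307_s_at, a peptide transporter subunit, rose by 0.75 in ETV1 cells and by 2.41 on the arrays labelled ERG. The 5 rises in ETV1 cells were all of antigen supply genes, since the inducible subunits PSMB8 (-0.43) and PSMB9 (0.19) did not pass. PSMB10, also inducible, did not pass either (-0.41). Core probe sets had falls and no rises in ETV1 cells, and the difference between the lists was not tested.

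Markers of other cell types moved on the arrays labelled ERG. The summed intensity of 4 prostate luminal genes, with the brightest probe set of each, was 804 to 955 on the control, 746 to 831 on the ETV1 and 189 to 224 on the arrays labelled ERG, where 4 of 4 tested probe sets fell. The sum of 3 endothelial genes was 169.7 to 193 there against 1369.9 to 1562 on the control arrays, carried by PECAM1 1559921_at, and that of 4 fibroblast genes was 189 to 277 against 879 to 1128. Few of these markers passed the filter, namely 4 of 14 luminal, 1 of 8 endothelial and 5 of 17 fibroblast probe sets. Each of these sums includes genes without a probe set that passed it. The fibroblast probe sets were divided, since 3 of 5 tested rose and 2 fell: COL1A1 1556499_s_at was at 0.87, COL1A1 202310_s_at at 0.63 and DCN 209335_at at 1.71, but the brighter COL1A1 217430_x_at at -2.23 and DCN 201893_x_at at -1.86. The sum of 8 basal and general epithelial genes was 43174 to 43798 there against 28896 to 33186 on the control and 30427 to 31994 on the ETV1 arrays. Of its 11 tested probe sets 3 rose there, those of KRT5 (1.11), KRT8 (1.04) and EPCAM (0.98), and 4 fell, CDH1 201130_s_at (-1.88) and all 3 of ITGB4 (-3.68, -0.82 and -0.49). Between ETV1 and control 5 of 11 tested epithelial probe sets rose and 2 fell, 1 luminal probe set of 4 fell, and 0 of 5 fibroblast and 0 of 1 endothelial passed. The part of these genes in the proteasome results was not tested.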

How the data were processed

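The deposited table holds intensity values per probe set, on a linear scale, for the 10 arrays of RWPE-1 cells. The authors' summarisation of probes, background correction and normalisation are not given in the sources used here. Per the labels' protocols, total RNA was extracted with Trizol and biotin-labelled cRNA was made by the standard Affymetrix protocol. Scanner files were not used here.

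Probe sets were named from GEO's platform annotation, and those naming 1 gene were kept. Values were used as deposited, as log2(intensity + 16). Tests used limma 3.58.1 in R 4.3.3 (lmFit and eBayes) in 1 model of all 3 groups, which leaves 7 residual degrees of freedom. P-values are two-sided and were adjusted by Benjamini-Hochberg over 25969 probe sets, with a threshold of 0.05. Every probe set was kept as a unit, and the brightest per gene was tried as an alternative. The script was tested on simulated data. Promoter motifs were counted with Python 3.11.15 and tables made with pandas 2.3.3, and figures with matplotlib 3.10.9.

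The members, lists and tests were chosen with earlier results of these data known. Values on every array are given for the 3 largest passing rises and falls of each class and comparison, for the brightest probe sets of the catalytic, activator, inhibitor and PSMG genes, and for genes whose probe sets passed in opposite directions. The other genes are given by fold change or count. Results were recomputed after quantile normalization or median centring, with no filter or a filter at the 75th percentile, with 1 probe set per gene (the brightest on all or on control arrays), without probe sets that carry a suffix, with limma's trend and robust options, on only 2 groups, with the replicate letter as a block, with 1 or 64 as pseudocount, at a threshold of 0.01, and without each array in turn. The bright background (control mean of at least 1000) and scaling combined with the brightest probe set were chosen after seeing the data.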

Additional observations from a re-analysis of the deposited data

Results flagged for a closer look

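Among the 4 ETV1 arrays, array C stood apart from the others for PSMB2 probe set 201404_x_at, with an intensity of 877 against 913 to 918 on A, B and D. The gap is wide only in relation to a very narrow spread, and it is small beside the control arrays, which ran from 716 to 1265. About 1 in 20 groups of this size is picked out by chance, and 36 probe sets were looked at in this way.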

How the results depend on the processing

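Of 2319 values of named probe sets under the alternatives, 2173 kept their direction and their side of the threshold, 64 lost the call, 51 gained one, and 9 turned with a call on at least 1 side. In 22 more, of 10 results, the sign turned while neither value passed, 4 of them by scaling: under quantile normalization PSMA4 (0.19) and PSMG3 (0.067) between ETV1 and control, and under median centring PSMF1 201053_s_at in the same comparison (-0.019) and PSMC2 201067_at between the arrays labelled ERG and control (0.23). The turns with a call under quantile normalization were PSMB2 200039_s_at (-0.092), PSMD2 (-0.48), PSMD12 202353_s_at (-0.29) and PSME3 200987_x_at (-0.35) against control, and the same PSME3 probe set against ETV1 (-0.51), all on the arrays labelled ERG. Those under median centring were PSMD1 201198_s_at (0.18 against control and 0.50 against ETV1), PSME4 212219_at (0.15) and PSMC2 201067_at (0.070), both against ETV1. The counts that follow are core, then regulatory and assembly, and the cause of each shift was not tested unless fewer probe sets entered.

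Between ETV1 and control, a threshold of 0.01 left 9 core falls, 2 rises and 4 falls, and no filter left 2 rises and 7 falls among regulatory and assembly probe sets. Over the arrays left out in turn, core falls ran from 9 to 18, and regulatory and assembly rises from 2 to 5 and falls from 4 to 20. With the replicate block 10 core and 5 regulatory and assembly probe sets fell. No other group has a letter D, so the block also takes ETV1 D out of the comparison, and without ETV1 D alone the numbers were 11 and 8. Same-letter correlations were at most 0.09 and different-letter ones reached 0.10, too few values to tell whether the letters pair the arrays. Between the arrays labelled ERG and control, quantile normalization left 11 core rises, 15 rises and 16 falls, and median centring 3 falls. Leaving out arrays gave 21 core rises each time, and 21 to 25 rises and 4 to 8 falls. Between the arrays labelled ERG and ETV1, quantile normalization gave 13 falls and median centring 3 falls among regulatory and assembly probe sets, and leaving out arrays gave 4 to 6.

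With 1 probe set per gene, the brightest on all arrays, fewer entered, and the 3 core probe sets lower on the arrays labelled ERG were not among them. There were 2 regulatory and assembly rises between ETV1 and control. Between the arrays labelled ERG and control there were 0 core falls and 2 regulatory and assembly falls. Against ETV1 there were 14 core rises, 0 core falls and 2 regulatory and assembly falls. Chosen on the control arrays, the numbers were 2, then 0 core falls and 15 rises, then 14 and 0, and 19 rises and 2 falls. Probe sets without a suffix gave 6 and 5 falls between ETV1 and control, 11 and 12 rises and 1 regulatory and assembly fall between the arrays labelled ERG and control, and 12 and 15 rises and 3 falls against ETV1.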
